A study of Mus musculus with 8 samples.

Results

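The genes described here encode the 5 subunits of the transcription factor NF-kB (Nfkb1, Nfkb2, Rela, Relb and Rel) and 5 proteins that restrain or tune it (Nfkbia, Nfkbie, Nfkbiz, Tnfaip3 and Bcl3). They were found by matching the Ensembl gene identifiers of the deposited table to symbols in GENCODE M21. All 10 were among the 20781 genes of the table, and all 10 were among the 16565 genes with enough counts to be tested. RNA was sequenced from cultured fibro-adipogenic progenitors (FAPs), mesenchymal cells of skeletal muscle that give rise to fibroblasts and adipocytes. The cells came from uninjured leg muscles (tibialis anterior, gastrocnemius and quadriceps) of male wild-type mice. The strain is C57BL/6 in the sample labels and C57BL/6J in the series text. After 48 h in culture, 4 samples received vehicle and 4 received melatonin, each for 24 h in vitro, and the dose is not given in the labels. The extraction protocol in the labels names longissimus dorsi, a back muscle, and this mismatch could not be resolved. The labels call the samples biological replicates but tie none of them to an animal or a culture, so p-values measure the spread between these samples.

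NF-kB subunits pair with one another through a shared Rel homology domain and bind kB sites in DNA. Rela, Relb and Rel carry an activation domain, whereas the products of Nfkb1 (p105, processed to p50) and Nfkb2 (p100, processed to p52) lack one after processing. Inhibitor proteins of the IkB family hold dimers in the cytoplasm until a kinase complex, switched on by receptors for interleukin-1, tumour necrosis factor or microbial products, marks them for destruction. Several inhibitor and subunit genes are themselves switched on by NF-kB, which makes the system a set of feedback loops. Transcript levels say nothing of where the proteins are or whether they bind DNA.

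The promoters are shown first because induction through kB sites close to the start of transcription is the textbook basis of this feedback. RefSeq promoter windows on GRCm38.p6, running from 250 bases before to 50 after a start site, were found for 7 of the 10 genes, not for Nfkb1, Relb and Nfkbiz. Both strands were searched for the NF-kB decamer consensus and for the nonamer GGAATTTCC, a form bound by Rela. A match to either was found in 5 of the 7 genes. Over all 27025 genes with windows, 6.81% had one (6.55% the decamer and 0.381% the nonamer). Stretches of 60 bases around the matches are given here in the 5′ to 3′ direction of each gene, with the matched bases in capitals. The nonamer match of Nfkbia lies inside its decamer match, and the decamers of Rel are a pair that overlap by all but 1 base.
Nfkbia, chr12:55492642-55492701, minus strand: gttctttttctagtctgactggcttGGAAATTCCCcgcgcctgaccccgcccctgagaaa
Tnfaip3, chr10:19015394-19015453, minus strand: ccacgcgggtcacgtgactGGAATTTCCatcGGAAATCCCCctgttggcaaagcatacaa
Nfkb2, chr19:46304687-46304746, plus strand: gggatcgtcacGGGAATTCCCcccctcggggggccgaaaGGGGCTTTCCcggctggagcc
Nfkb2 at a downstream start, chr19:46305680-46305739, plus strand: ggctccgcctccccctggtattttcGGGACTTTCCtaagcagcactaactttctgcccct
Rel, chr11:23771026-23771085, minus strand: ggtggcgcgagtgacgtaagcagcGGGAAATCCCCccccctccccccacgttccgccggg
Bcl3, chr7:19822719-19822778, minus strand: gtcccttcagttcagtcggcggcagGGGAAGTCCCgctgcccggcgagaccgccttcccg
In Nfkbia the decamer spans bases -29 to -20 from the start. In Tnfaip3, which encodes the ubiquitin-editing enzyme A20, the nonamer spans -24 to -16 and the decamer -12 to -3. These letters were not found in the windows of Rela and Nfkbie. A match is a description of the sequence, and binding was not measured here.

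All 10 genes were lower with melatonin and all 10 passed the test (edgeR quasi-likelihood, adjusted p under 0.05). Across all 16565 tested genes 36.5% passed, 18.5% lower and 18.1% higher. The 10 genes were chosen with earlier results of these data known, so their share is a description and not a test. The members had a median log2 fold change of -0.77, melatonin over vehicle, against 0.01 for all tested genes. The deepest declines were in Nfkbie and Nfkbiz, to about 39.1% and 40.3% of the vehicle level, and the shallowest in Bcl3, to 76.0%. In 9 of the 10 genes every melatonin library lay below every vehicle library, which was so in 19.2% of all tested genes. The exception was Rel, the least abundant. In bulk RNA, fewer cells that express a gene and less RNA per cell cannot be told apart.

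**Figure D1:**
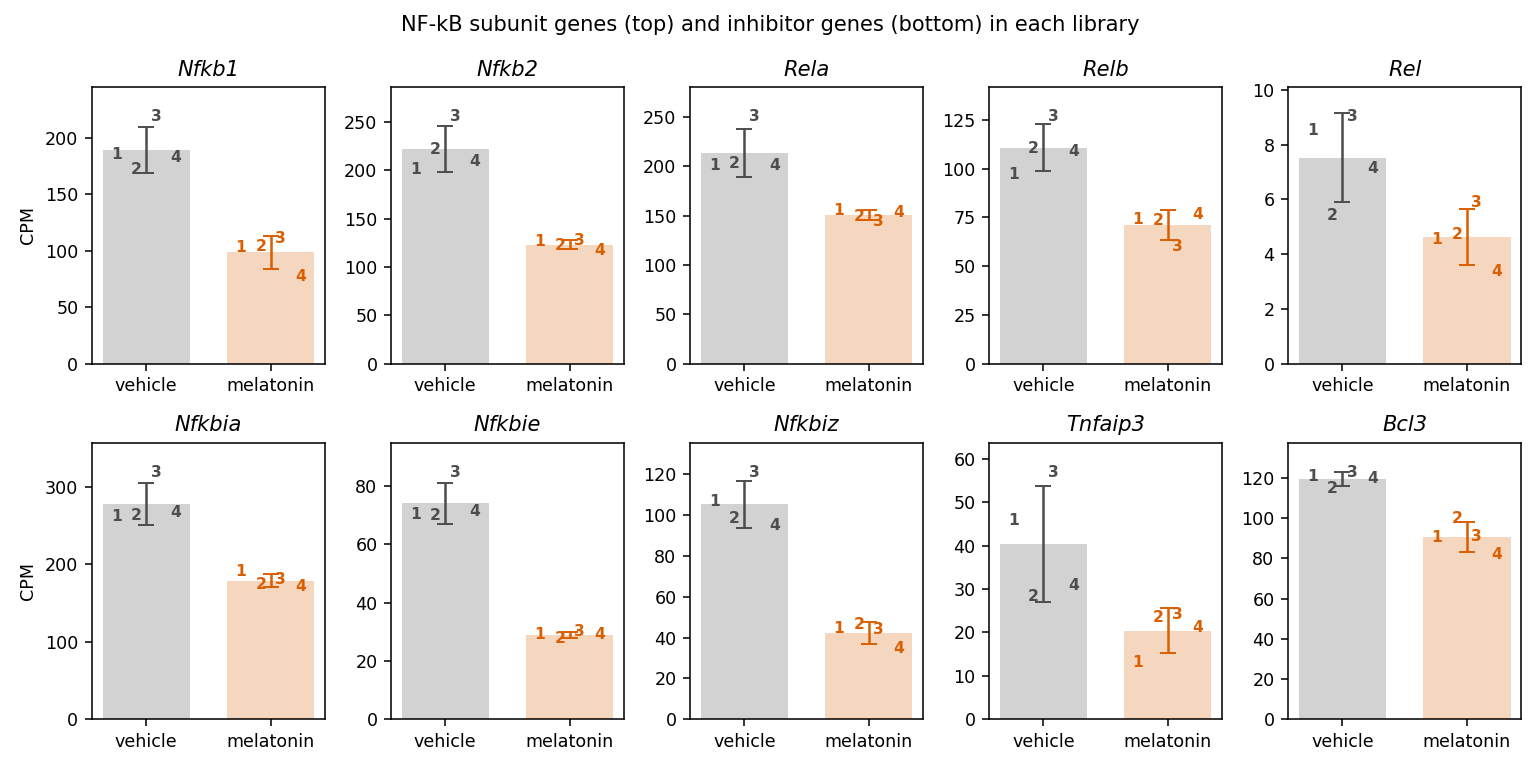
CPM (y axis, from 0) of the 10 genes in each library; the digits are replicate numbers placed at their values, bars are means and error bars SDs of 4 libraries. The groups do not overlap except for Rel, and vehicle replicate 3 is the highest vehicle library in all 10 panels.

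Library totals were 35584931 to 52401153 counts, and the members had 126 to 14520 counts in a single library, with Rel the lowest and Nfkbia the highest. CPM (counts put on one common depth per library) and fold changes are relative to TMM scaling. With library totals alone the median of all tested genes moved to 0.17, and the share of passing genes that were lower went from 50.6% to 30.5%. On that scale the 10 genes were still lower, with log2 fold changes of -1.19 to -0.24, and 9 passed. Melatonin replicate 4 stood apart on the second principal component (-37.7 against 13.8 to 15.3 for the other 3), and leaving it out changed one member's call, that of Tnfaip3, as given below. FAP markers summed over 10 genes to 16006 to 18794 CPM with vehicle and 9457 to 11038 with melatonin, a sum carried mostly by Col1a1. Of the 10, 5 fell, Gsn rose (974 ± 59.2 to 2069 ± 210.05 CPM) and 4 did not pass, and their vehicle means reached down to 2.33 CPM for Dpp4. Markers of macrophages, cells with strong NF-kB activity, summed to 525.5 to 796 and 351.5 to 656.5 CPM over 12 genes. The lowest sum was that of melatonin replicate 4, and melatonin replicates 1 to 3 were at 602 to 656.5 CPM. Of the 12 genes 2 fell (16.7%, against 18.5% of all tested genes), 4 rose (against 18.1%) and 6 did not pass. Those that rose were the complement genes C1qa, C1qb and C1qc and the mannose receptor gene Mrc1, with log2 fold changes of 0.98 to 1.28. Their edgeR adjusted p was 0.0072 to 0.044. Those that fell were Cd14 (-1.13 ± 0.13, edgeR adjusted p = 1.0e-04) and Csf1r (-0.76 ± 0.24, adjusted p = 0.033). The macrophage sum was carried mostly by Lyz2 (444 ± 84.6 CPM with vehicle and 398 ± 97.7 with melatonin), which did not pass. The pan-leukocyte gene Ptprc, at 2.83 to 3.89 CPM with vehicle and 0.751 to 2.63 with melatonin, did not pass (edgeR adjusted p = 0.099). Endothelial markers summed to 28.7 to 34.6 and 45.8 to 54.4 CPM, a difference carried by Tek (17.1 ± 1.51 to 35.3 ± 3.61 CPM), the only one of the 5 that passed. The myogenic markers summed to 45.5 to 62.9 and 26.3 to 97.4 CPM, and none of the 4 tested passed. Melatonin replicate 4 again had the lowest sum, and melatonin replicates 1 to 3 were at 63.7 to 97.4 CPM. The single lymphocyte marker in the table, Cd79a, did not exceed 0.174 CPM. The part of these cells in the results was not tested.

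The classical pathway acts mostly through dimers of Rela (p65) and p50. Rela (ENSMUSG00000024927, chromosome 19, 5637483 to 5648130, plus strand, all positions on GRCm38) was at 200.4, 203, 250.02 and 200.5 CPM in vehicle replicates 1 to 4, and at 156, 149, 144 and 153 CPM in melatonin replicates 1 to 4. Its vehicle values were tight apart from replicate 3, and every melatonin value was lower. The log2 fold change was -0.51 ± 0.082 (SE, n = 4 per group, edgeR adjusted p = 9.7e-04), the smallest of the 5 subunits.

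Nfkb1 (ENSMUSG00000028163, chromosome 3, 135584655 to 135691547, minus strand), which encodes the p50 precursor, was at 185, 172, 219 and 182 CPM with vehicle and 103, 104, 111 and 77.2 CPM with melatonin. Melatonin replicate 4 was the lowest of its group, and the groups were far apart. The transcript was 1.92-fold lower (log2 fold change -0.94 ± 0.12, edgeR adjusted p = 2.0e-04).

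The alternative pathway works through p52 and Relb and is set in motion by receptors such as the lymphotoxin beta receptor. Nfkb2 (ENSMUSG00000025225, chromosome 19, 46304320 to 46312385, plus strand) was at 201, 221, 255 and 209.5 CPM with vehicle and 126, 122, 127 and 117 CPM with melatonin. The 4 melatonin libraries lay within a narrow band well under the lowest vehicle library, a difference of -0.85 ± 0.081 (log2, edgeR adjusted p = 3.6e-05). Nfkb2 shares 299 exonic bases with Psd and 531 with the noncoding gene AC114539.1, both on the opposite strand. No source used here says whether strand was used in counting. AC114539.1 is not among the counted genes, so its reads could not be gauged. Psd had 7529 counts over all 8 libraries, against 4349 to 11647 for Nfkb2 in each single one.

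Relb (ENSMUSG00000002983, chromosome 7, 19606217 to 19629438, minus strand) was at 97.1, 110.4, 127 and 109 CPM with vehicle and 74.1, 73.7, 59.9 and 76.5 CPM with melatonin. Here melatonin replicate 3, not 4, was the low one. Its log2 fold change was -0.64 ± 0.10 (edgeR adjusted p = 8.1e-04).

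Rel (ENSMUSG00000020275, chromosome 11, 23736847 to 23770970, minus strand), whose product c-Rel is best known in lymphocytes, was the scarcest member. It was at 8.53, 5.42, 9.01 and 7.12 CPM with vehicle and 4.55, 4.70, 5.90 and 3.38 CPM with melatonin. Vehicle replicate 2 lay below melatonin replicate 3, so the groups overlapped. The log2 fold change was -0.70 ± 0.20 (95% interval -1.14 to -0.25, edgeR adjusted p = 0.021). The call was lost without vehicle replicate 1 (-0.63, adjusted p = 0.061), vehicle replicate 3 (-0.60, adjusted p = 0.063) or melatonin replicate 1 (-0.67, adjusted p = 0.053), and with library totals alone (-0.53, adjusted p = 0.056).

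Among the inhibitors, Nfkbia and Nfkbie encode IkB-alpha and IkB-epsilon, which hold dimers in the cytoplasm and are resynthesised after each round of activation. Nfkbia (ENSMUSG00000021025, chromosome 12, 55489410 to 55492647, minus strand) was at 261, 263, 318 and 267 CPM with vehicle and 190.5, 174, 179.8 and 172 CPM with melatonin. Its drop was moderate, -0.63 ± 0.078 (log2, edgeR adjusted p = 1.8e-04).

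Nfkbie (ENSMUSG00000023947, chromosome 17, 45555703 to 45563169, plus strand) was at 70.4, 70.0, 84.6 and 71.4 CPM with vehicle and 29.2, 27.5, 29.9 and 29.2 CPM with melatonin. The 4 melatonin libraries were nearly alike, and the lowest vehicle library was above them by 40.0 CPM or more. Nfkbie was 2.56-fold lower, with a log2 fold change of -1.35 ± 0.079 and the smallest p of the set (edgeR adjusted p = 2.0e-06). The 95% intervals of the 2 IkB genes, -0.81 to -0.46 for Nfkbia and -1.53 to -1.18 for Nfkbie, did not meet.

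Nfkbiz and Bcl3 encode atypical IkB proteins that work in the nucleus with p50 or p52, where they help as well as hinder transcription. Nfkbiz (ENSMUSG00000035356, chromosome 16, 55811375 to 55838899, minus strand), which encodes IkB-zeta, was at 107, 98.5, 121 and 95.01 CPM with vehicle and 44.7, 46.7, 43.8 and 34.6 CPM with melatonin. The lowest vehicle library was above the highest melatonin library by 48.4 CPM. The log2 fold change was -1.31 ± 0.11 (edgeR adjusted p = 1.7e-05).

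Bcl3 (ENSMUSG00000053175, chromosome 7, 19808462 to 19822770, minus strand) was at 121, 115, 123 and 119.5 CPM with vehicle and 90.2, 99.9, 90.9 and 81.8 CPM with melatonin. It was the steadiest member with vehicle, with a coefficient of variation of 2.91%. Its decline of -0.40 ± 0.069 (log2, edgeR adjusted p = 0.0015) was the smallest of the 10. The antisense gene Gm16175, which shares 161 exonic bases with it, had 36 counts over all libraries.

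Tnfaip3 (ENSMUSG00000019850, chromosome 10, 19000910 to 19015657, minus strand) encodes A20, which edits ubiquitin chains on signalling proteins upstream of the IkB kinases. It was at 45.8, 28.4, 56.8 and 30.8 CPM with vehicle and 13.0, 23.45, 24.1 and 21.0 CPM with melatonin. The vehicle libraries were widely spread, with replicates 1 and 3 high, and the lowest of them exceeded the highest melatonin library by only 4.22 CPM. The log2 fold change was -0.99 ± 0.27 (95% interval -1.60 to -0.37, edgeR adjusted p = 0.021). The call was lost without vehicle replicate 1 (-0.92, adjusted p = 0.052) or melatonin replicate 4 (-0.99, adjusted p = 0.065).

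**Figure D2:**
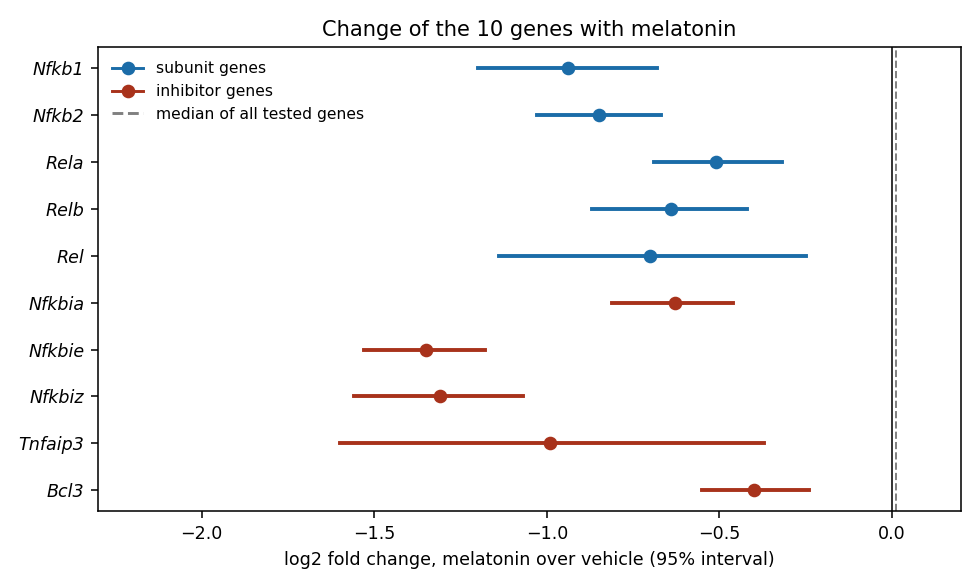
Log2 fold change (x axis, melatonin over vehicle) of each gene with its 95% interval from the edgeR fit, for the subunit genes (blue) and the inhibitor genes (red); the dashed line is the median of all tested genes. No interval reaches 0, and those of Nfkbie (-1.53 to -1.18) and Nfkbiz (-1.56 to -1.07) lie below that of Rela (-0.69 to -0.32).

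Vehicle replicate 3 was the highest of the 4 vehicle libraries for all 10 members, against 26.1% of all tested genes and 36.1% of the genes called lower. Its level was 1.04 times the mean of the other 3 vehicle libraries for Bcl3, 1.20 to 1.28 times for 8 members and 1.62 times for Tnfaip3. Without this library the median log2 fold change of the 10 genes was -0.69, and all but Rel passed.

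To compare genes with one another, levels were put per length of annotated exon (RPKM). Nfkbia was the most abundant member in both groups, at 172 ± 17.0 RPKM with vehicle and 111 ± 5.23 with melatonin (mean ± SD, n = 4). Rela came next, at 69.5 ± 7.93 and 49.0 ± 1.62 RPKM. With vehicle the order then ran Nfkb2 (48.4 ± 5.21), Bcl3 (48.2 ± 1.40), Relb (28.5 ± 3.11), Nfkbie (24.3 ± 2.32), Nfkbiz (21.0 ± 2.30), Nfkb1 (15.7 ± 1.69), Tnfaip3 (5.60 ± 1.85) and Rel (1.01 ± 0.216). Nfkb2 and Bcl3 could not be ordered with vehicle, since Nfkb2 was the higher in only 2 of the 4 libraries. The library ranges of Relb and Nfkbie, and of Nfkbie and Nfkbiz, also overlapped, but within each of the 4 vehicle libraries Relb was above Nfkbie and Nfkbie above Nfkbiz. With melatonin Bcl3 (36.6 ± 2.99 RPKM) stood above Nfkb2 (26.8 ± 1.04) with no overlap, and Nfkbie, Nfkbiz and Nfkb1 formed a group of overlapping neighbours at 8.19 to 9.52 RPKM. The annotated exons of Nfkb1 add up to 12061 bases, which lowers its value per length if not all of them are used in these cells.

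**Figure D3:**
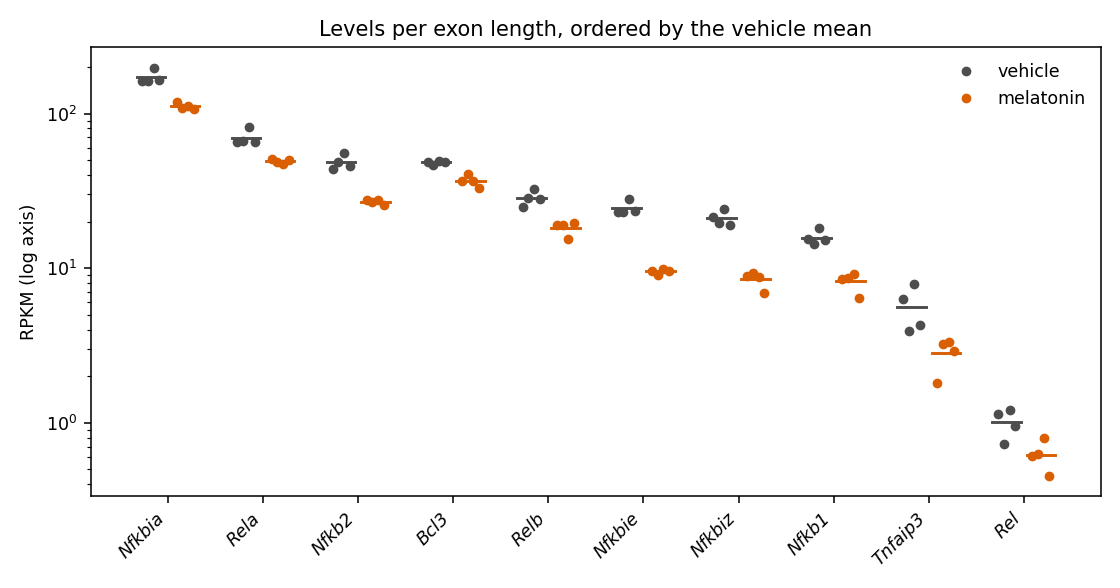
RPKM (y axis, log scale) of the 10 genes in the 4 vehicle and the 4 melatonin libraries (points) with group means (lines), ordered by the vehicle mean. Nfkbia is the highest in both groups at 172 and 111 RPKM, and Rel the lowest at 1.01 and 0.621.

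Ratios within a library do not depend on how libraries are scaled. Relative to Rela, 5 members were lower in every melatonin library than in every vehicle library. The share of all tested genes for which this holds was not computed. Nfkbie went from 0.351 ± 0.00768 to 0.195 ± 0.0101 of the Rela level (RPKM ratio, n = 4), and Nfkbiz from 0.302 ± 0.0164 to 0.173 ± 0.0242. Nfkb1 went from 0.226 ± 0.00915 to 0.168 ± 0.0284 and Nfkb2 from 0.696 ± 0.0249 to 0.549 ± 0.0324. For Nfkbia the shift was slight, from 2.48 ± 0.0455 to 2.27 ± 0.106. The ratios of Relb, Rel, Tnfaip3 and Bcl3 to Rela overlapped between the groups. These ratios were described and not tested.

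By these levels the mix of subunit transcripts differed between the groups, again as a description. Rela made up 41.9% to 43.3% of the summed RPKM of the 5 subunit genes with vehicle and 46.9% to 48.9% with melatonin. Nfkb2 went the other way, at 29.1% to 30.6% with vehicle and 24.99% to 27.7% with melatonin. The shares of Nfkb1 (9.64% ± 0.490 and 7.96% ± 1.21), Relb (17.5% ± 0.704 and 17.8% ± 1.68) and Rel (0.618% ± 0.123 and 0.604% ± 0.142) overlapped between the groups.

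**Figure D4:**
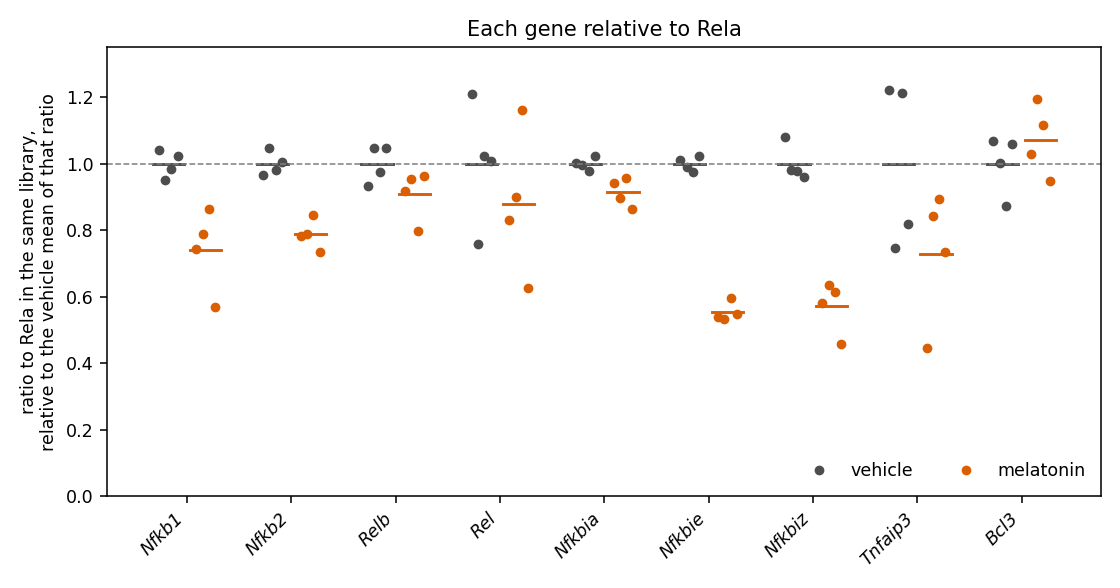
Ratio of each gene to Rela in the same library (y axis, divided by the vehicle mean of that ratio, from 0), with points for libraries and lines for group means. The melatonin points lie below all vehicle points for Nfkb1, Nfkb2, Nfkbia, Nfkbie and Nfkbiz.

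Other genes of the pathway were read from 8 lists grouped by role. The lists were drawn up with earlier results of these data known, so their shares are a description and not a test. In all, 97 of 102 listed genes were tested, 54 fell (55.7%, against 18.5% of all tested genes), 3 rose (against 18.1%) and 40 did not pass, with a median log2 fold change of -0.43. With library totals alone 45 of them were called lower and 12 higher, around a median of -0.28. Of the remaining IkB genes, Nfkbib (IkB-beta) fell from 59.1 ± 5.71 to 43.7 ± 2.12 CPM (-0.43 ± 0.080, edgeR adjusted p = 0.0021), and Nfkbid and Nfkbil1 did not pass. The list of IkB kinases and upstream kinases also held the partner genes Ikbkg, Tab1, Tab2 and Tab3, whose products are not kinases. Of its 15 genes 9 fell (60%, against the same 18.5%), with a median of -0.37. Ikbkb, a catalytic subunit of the classical IkB kinase, went from 46.7 ± 3.14 to 30.0 ± 2.47 CPM. Irak2, whose product relays interleukin-1 and Toll-like receptor signals, went from 20.8 ± 1.61 to 9.32 ± 1.42 CPM (-1.16 ± 0.12).

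Among adaptors and ubiquitin ligases 6 of 15 fell (40%, against 18.5% of all tested genes) and 1 rose (against 18.1%). The balance of this list turned with library totals alone, to 3 lower and 4 higher, and at an adjusted p under 0.01 it was 3 lower and 0 higher. Birc3 (cIAP2), itself a known NF-kB target, went from 62.8 ± 6.07 to 16.2 ± 2.47 CPM (-1.95 ± 0.12), and its relative Birc2 (cIAP1) from 32.5 ± 1.72 to 17.1 ± 1.05 CPM. Rbck1, a part of the linear ubiquitin ligase complex, rose by a log2 fold change of 0.21 ± 0.055 (edgeR adjusted p = 0.014). With the replicate number as a block this call was lost (edgeR adjusted p = 0.064). Of 14 further brakes on the pathway 4 fell (28.6%, near the 18.5% of all tested genes) and 1 rose. The A20 partner genes Tnip3 (6.77 ± 0.676 to 1.17 ± 0.323 CPM) and Tnip1 (316 ± 60.8 to 161 ± 6.81 CPM) fell. Tollip, which restrains Toll-like receptor signalling, rose by 0.22 ± 0.065 on the log2 scale (adjusted p = 0.025), and this call was lost without vehicle replicate 1 (0.17, adjusted p = 0.062) or vehicle replicate 2 (0.21, adjusted p = 0.064).

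Of 7 factors that control the decay of inflammatory transcripts, 2 fell (28.6%, again near the 18.5% of all tested genes) and the median was 0.0. Zc3h12a (Regnase-1), a ribonuclease that cuts the Nfkbiz transcript among others, went from 193 ± 13.1 to 130.0 ± 12.5 CPM (-0.57 ± 0.083, edgeR adjusted p = 5.3e-04). Zfp36l1, which binds AU-rich elements, fell by 0.52 ± 0.11 on the log2 scale, with groups that overlapped.

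Ligands that switch the pathway on were lower in 6 of 8 tested cases (75%, against 18.5% of all tested genes), with a median of -1.68. The log2 fold change of Il1b was -6.00 ± 0.39 and that of Tnfsf11 (RANKL) -2.46 ± 0.11. Il1b was at 8.12 to 20.6 CPM with vehicle and 0.107 to 0.355 CPM with melatonin. Its lowest library held 4 counts, so the size of its change rests on few counts. Tnf, named here after its values were seen, went from 26.3 ± 6.61 to 7.04 ± 2.49 CPM (-1.90 ± 0.28, edgeR adjusted p = 9.2e-04). Among receptors 6 of 14 fell (42.9%, against 18.5%) and 1 rose (against 18.1%), or 4 and 3 with library totals alone. With upper-quartile factors, DESeq2 or limma-voom 6 fell and 2 rose. Cd40 fell from 7.14 ± 2.07 to 1.19 ± 0.116 CPM and Tnfrsf1b (TNF receptor 2) from 188.5 ± 10.5 to 104 ± 9.98 CPM. Tnfrsf1a (TNF receptor 1) did not fall, at 399 ± 14.5 CPM with vehicle and 448 ± 17.5 with melatonin. It did not pass (edgeR adjusted p = 0.05). Ltbr, the lymphotoxin beta receptor of the alternative pathway, rose from 219 ± 3.48 to 264 ± 7.54 CPM (0.27 ± 0.053, edgeR adjusted p = 0.0028).

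The target list held mostly genes of secreted and surface proteins, and also Ptgs2 and Sod2, whose enzymes act inside the cell. Of its 21 genes 20 fell (95.2%, against 18.5% of all tested genes). Their log2 fold changes ran from -5.53 to -0.27 around a median of -2.15. In 15 of the 21 the log2 fold change was below that of every member, 5 lay within the members' range, and that of Csf1 (-0.27) was above it. This difference between targets and members was not tested. The log2 fold change of the chemokine gene Ccl20 was -4.64 ± 0.17 and that of the cyclooxygenase gene Ptgs2 -3.54 ± 0.14. The target that did not pass was Cxcl10, chosen for mention after its values were seen. It was at 271.7 to 1172 CPM with vehicle, where replicate 3 was the highest, and at 56.9 to 351 CPM with melatonin (-1.69 ± 0.73, edgeR adjusted p = 0.11). The median of the 5 subunit genes was -0.70 and that of the 5 inhibitor genes -0.99.

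**Figure D5:**
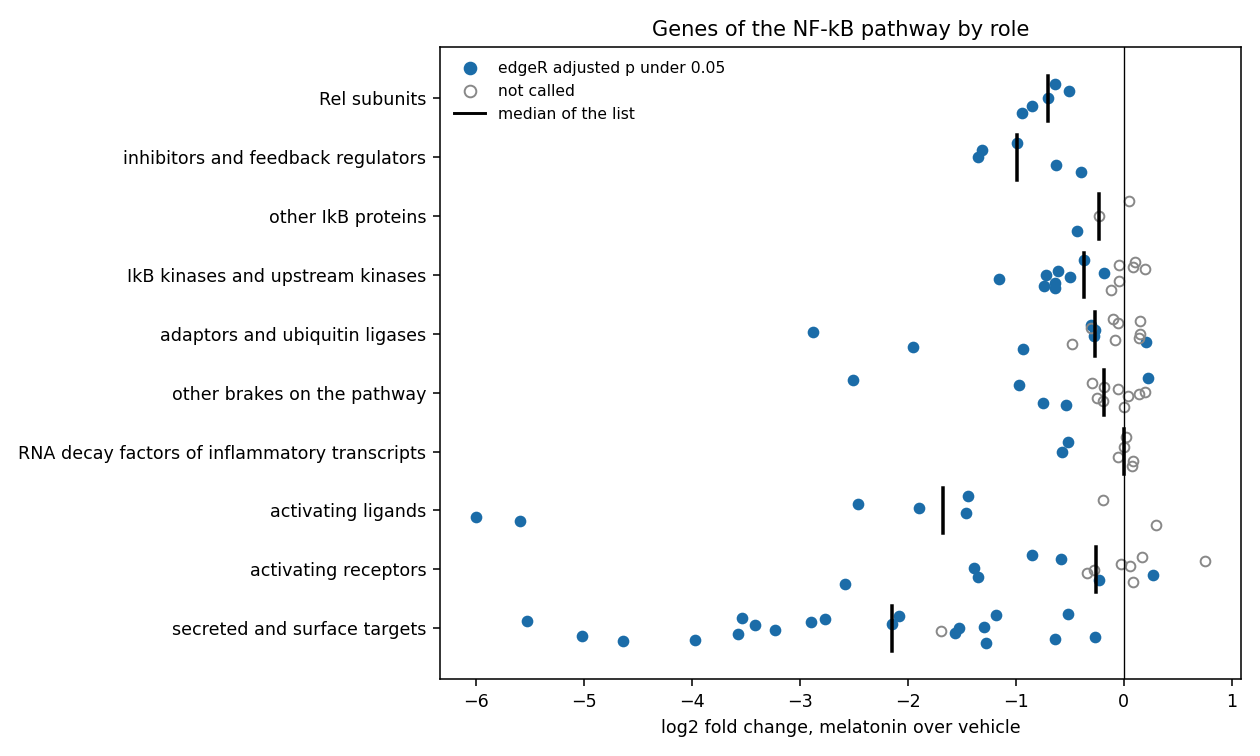
Log2 fold change (x axis, melatonin over vehicle) of each tested gene of the pathway, by role (rows); filled points passed at an edgeR adjusted p under 0.05, open points did not, and black bars are list medians. The subunit and inhibitor genes lie between -1.35 and -0.40, while ligands and targets reach -6.00 and -5.53.

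The genes whose profile over the 8 libraries was nearest to that of Nfkbia, by root mean square distance of log2 CPM less the vehicle mean, were Mvp (distance 0.0363), Sgpp1 (0.0518) and Stk39 (0.0534). Mvp, the major vault protein gene, went from 279 ± 28.1 to 179 ± 6.27 CPM, close to the values of Nfkbia itself (277 ± 27.4 to 179 ± 8.42 CPM). Sgpp1, a sphingosine phosphate phosphatase gene, went from 124 ± 12.1 to 80.7 ± 2.05 CPM, and the kinase gene Stk39 from 27.5 ± 2.04 to 17.6 ± 0.414 CPM. These were the nearest of 16565 tested genes, and the likeness is a description.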

How the data were processed

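The authors deposited whole-number counts per Ensembl gene for 8 libraries. The build was mm10 and the tools listed include HISAT2 2.0 and StringTie 1.3.3b, while DESeq2 1.12.4, FastQC 0.11.2, bedtools 2.26.0 and Trimmomatic 0.36 are listed with them, per the submitters' processing notes. Which program counted, with which annotation and strand setting, is not given in the sources used here. Columns prefixed as control were read as vehicle, the only other group in the labels. Of the 20781 identifiers 20720 matched GENCODE M21 on GRCm38. Genes were filtered with filterByExpr, leaving 16565, and scaled by TMM (factors 0.916 to 0.974 for vehicle, 1.05 to 1.08 for melatonin). The groups were compared with edgeR 4.0.16 (robust quasi-likelihood F-test, Benjamini-Hochberg over all tested genes). A standard error is the log2 fold change over the square root of F. RPKM used the merged exon length. DESeq2 1.42.0, limma-voom (limma 3.58.1), other scalings and filters, a stricter threshold, a replicate block and leaving out each library were alternatives. The fitting steps were tested on simulated counts in which few genes changed and all genes varied alike. That setting is simpler than these data, so it does not show how the scaling behaves here.

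The members and gene lists were chosen with earlier results of these data known. Besides all members, the genes named by rule are the 3 most like Nfkbia and others from each pathway list. Those others are the 2 lower and the 2 higher genes called with the smallest p. Cell type markers, genes that overlap members, Tnf, Tnfrsf1a, Cxcl10, Csf1, Sod2, Nfkbid, Nfkbil1, Ikbkg, Tab1, Tab2 and Tab3 were named outside this rule. Libraries within a group differed by more than sampling noise (chi-square of 20.7 to 65.1 per gene). Molecular identifiers are not described, so counts of reads may not be counts of molecules.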

Additional observations from a re-analysis of the deposited data

Results flagged for a closer look

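In 8 of 60 groups of 4 libraries examined (30 genes named from the NF-kB pathway), one library stood off from the other 3 by most of the group's range. Chance alone gives about 1 in 20 in independent groups. These groups share the same libraries and hold genes of a single pathway, so that rate does not apply to them. In 6 of the 8 it was vehicle replicate 3, higher than the others. Rela was at 250.02 CPM there against 200.4 to 203 in the other vehicle libraries, Nfkbia at 318 against 261 to 267, and Nfkbie at 84.6 against 70.0 to 71.4. Tnip1 was at 407 against 281 to 289, Birc3 at 71.8 against 58.9 to 60.3, and Birc2 at 35.1 against 31.4 to 31.8. The other two were low values with melatonin. Relb was at 59.9 CPM in melatonin replicate 3 against 73.7 to 76.5, and Irak2 at 7.21 CPM in melatonin replicate 2 against 9.79 to 10.3.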

How the results depend on the processing

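Over 17 alternatives each of the 10 genes kept a negative log2 fold change, and 8 of them kept their call under every alternative. Rel was not called with library totals alone (-0.53), and neither Rel (-0.70) nor Tnfaip3 (-0.99) passed at an adjusted p under 0.01. With each library left out in turn, Rel ranged from -0.82 to -0.57, Tnfaip3 from -1.12 to -0.78, and 8 to 10 members were called. The count of tested genes that passed was 3865 at the 0.01 threshold (1754 of them higher), and 5099 genes rose when library totals alone were used. Over the pathway lists, 12 genes were called higher with library totals alone, where the median was -0.28, and 1 at an adjusted p under 0.01. Leaving out libraries gave 2 to 6, the 6 without melatonin replicate 4. With the replicate number as a block 4942 genes passed in all, 10 members were called lower, and 1 pathway gene was called higher. Rbck1 (adjusted p = 0.064) and Tollip (adjusted p = 0.068) lost their call with the block. Same-numbered libraries did not deviate together (r over genes of -0.071 to 0.038, against -0.179 to 0.231 for differently numbered ones). The labels state no pairing, and this check cannot exclude one. The cause of these shifts was not tested. Rel had the lowest depth, 126 counts in its lowest library, but Tnfaip3 had the larger standard error (0.27 against 0.20).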

Other observations

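Vehicle replicate 3 was also the highest vehicle library in 18 of the 21 listed targets and 10 of 15 adaptors and ubiquitin ligases. It was so in 4 of the 15 genes of the kinase list, against 26.1% of all tested genes. The genes of the kinase list were spread over the libraries, with 5 highest in vehicle replicate 1, 1 in replicate 2 and 5 in replicate 4.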
